A study of Homo sapiens with 24 samples.

Results

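RNA from U937 cells that carried either of 2 hairpins against G9a was compared with RNA from cells that received DMSO. The members were the 6 libraries with a G9a hairpin, 3 with hairpin 2 and 3 with hairpin 3, and the 3 mock DMSO libraries, so 9 of the 24 libraries of the series. They were chosen by their labelled treatment, and each hairpin had equal weight in the mean. U937 is a human myelomonocytic line established from a histiocytic lymphoma, and it can be driven towards monocytes and macrophages. All groups were grown in RPMI with 10% serum. The hairpins came by lentivirus with 3 days of puromycin selection, while the labels give no transduction, no selection and no harvest time for the DMSO cells. Delivery and selection therefore differed between the groups together with the target, and cannot be told apart from it in this comparison. The 3 libraries with a scrambled hairpin are set beside the results as a control that carried a hairpin without this target. The labels give neither the virus nor the selection of those cells, and they do not say whether replicates were separate cultures, so p-values measure only the spread between these libraries, which may be technical.

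G9a, the product of EHMT2, works as a complex with GLP, the product of EHMT1, and places the dimethyl mark on lysine 9 of histone H3 (H3K9). This mark is found on silent chromatin, at repressed genes and over many copies of transposable elements. Losing it is known to allow transcription of some endogenous retroviruses, whose double-stranded RNA can be seen by cytosolic sensors that switch on interferon and its target genes. In myeloid cells G9a has been linked to the balance between growth of immature cells and their maturation.

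The EHMT2 transcript was lower in every G9a library. Values below are counts scaled to the library size (CPM), where the size is the total on genes times its TMM factor. EHMT2, annotated at 31847536 to 31865464 on the minus strand of chromosome 6 (hg19), was at 127, 147 and 163 CPM in the DMSO libraries. It was at 76.8, 71.3 and 73.0 CPM with hairpin 2 and at 70.6, 77.4 and 71.6 CPM with hairpin 3. All 6 values lay below all 3 DMSO values, and their mean was 50.3% of the DMSO mean (log2 change -0.99 ± 0.05 SE, adjusted p = 4.86e-14 by edgeR's quasi-likelihood test with Benjamini-Hochberg adjustment over all genes tested, as for every adjusted p below). The scrambled libraries held 139, 139 and 154 CPM, within the DMSO range. The partner EHMT1 was not called (log2 change -0.06 ± 0.04 SE, edgeR adjusted p = 0.248), nor were SUV39H1 (-0.05 ± 0.05, edgeR adjusted p = 0.460) and SUV39H2 (0.02, edgeR adjusted p = 0.766).

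**Figure D1:**
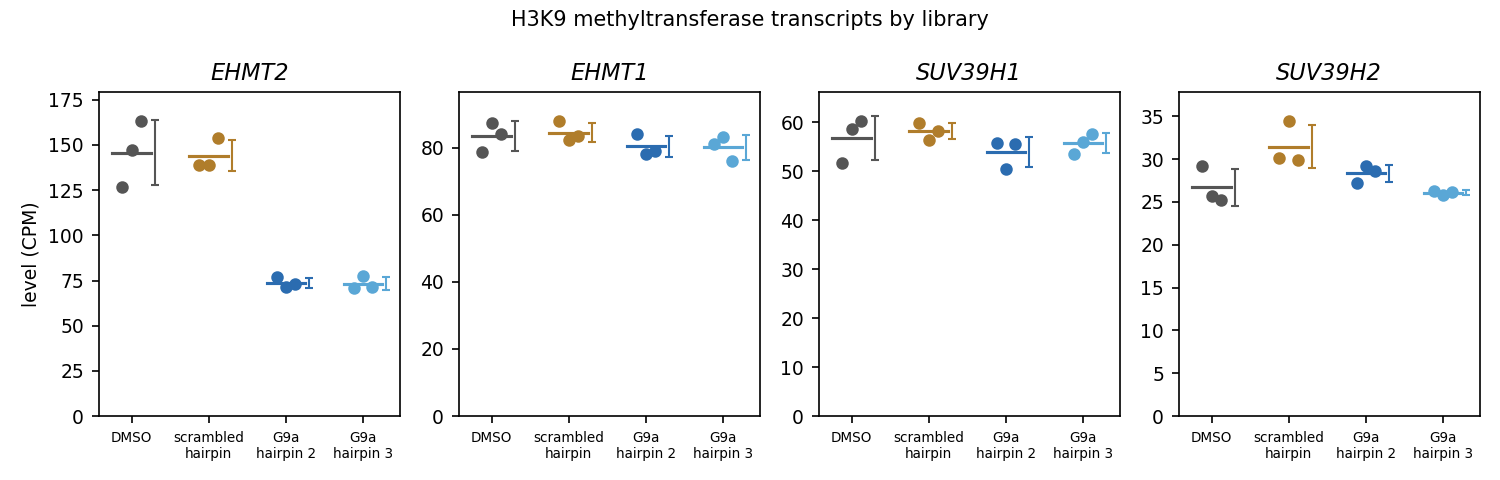
Levels in CPM of the transcripts of 4 H3K9 methyltransferases in the DMSO, scrambled, hairpin 2 and hairpin 3 libraries. Points are libraries, horizontal lines are group means and bars are the SD (n = 3). EHMT2 is at 70.6 to 77.4 CPM in the 6 G9a libraries against 127 to 163 CPM in DMSO, while the groups overlap for EHMT1 and SUV39H1.

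Gene totals of the 9 libraries ran from 31851239 to 47806304 counts, and repeat totals from 1837411 to 3337642. Myeloid genes were present in all 9. SPI1, the master regulator of myeloid cells, was at 127 to 151 CPM in DMSO and 127 to 146 CPM with G9a hairpins, and the integrin gene ITGAM was at 59.6 to 72.3 CPM and 68.6 to 81.4 CPM. The monocyte marker CD14 was near 0 in both groups, at 0.113 to 0.381 CPM and 0.106 to 0.293 CPM. The T cell gene CD3E had 0 counts in all 9 libraries, and CD3D, EPCAM, HBB and HBA1 had 1 count each. DMSO replicate 1 lay further from the other DMSO libraries than these from each other, with a median absolute log2 difference per gene of 0.146 and 0.184 against 0.089.

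The 2 hairpins gave nearly the same transcriptome. Of 20147 genes tested, 2 differed between hairpin 3 and hairpin 2 (0.00993%), 1 in each direction (0.00496%), and 771 had an unadjusted p under 0.05 (3.83%). None of 929 repeat names differed (0%), and 28 had an unadjusted p under 0.05 by the same edgeR test, while DESeq2 called 0 repeats and 3 genes. The median absolute log2 difference per gene between a hairpin 3 and a hairpin 2 library was 0.0724 to 0.117, which overlaps the 0.0815 to 0.108 between replicates of the same hairpin. A hairpin 2 library lay 0.208 to 0.244 from a DMSO library and a hairpin 3 library 0.2 to 0.252. The labels do not say whether the hairpin groups came from separate transductions.

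The 2 genes were EGR1, an immediate early transcription factor, and HSPA6, an inducible heat shock protein. EGR1 was at 9.11, 8.65 and 9.18 CPM with hairpin 2 and at 13.0, 14.2 and 14.9 CPM with hairpin 3, against 48.3, 51.6 and 55.2 CPM in DMSO. All 6 values were far below DMSO, and hairpin 3 lay above hairpin 2 by 0.65 on the log2 scale. HSPA6 was at 6.03, 6.12 and 5.95 CPM with hairpin 2, at 4.38, 4.82 and 3.74 CPM with hairpin 3 and at 10.5, 11.1 and 10.8 CPM in DMSO. Hairpin 3 lay below hairpin 2, with a log2 difference of -0.49, and both lay below DMSO. Leaving out 1 library ended the EGR1 call in 4 of 6 cases and the HSPA6 call in 5 of 6, with values of 0.60 to 0.66 and -0.50 to -0.39 in the cases where the call was lost.

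Against DMSO, the mean of the 2 hairpins differed in 9379 of 20147 genes (46.6%), with 4533 higher (22.5%) and 4846 lower (24.1%). Changes of at least 2-fold were fewer, 285 higher and 445 lower, and the median log2 change over all genes was 0.0022. Hairpin 2 alone gave 8364 calls (41.5%), with 19.8% of genes higher and 21.8% lower. Hairpin 3 alone gave 8170 (40.6%), with 19.6% higher and 21.0% lower. Both hairpins share the DMSO libraries, so a call in each is not independent evidence. The G9a libraries lay on the higher side of all 3 DMSO libraries in 3630 genes (18.0%) and on the lower side in 3926 (19.5%). Without DMSO replicate 1 there were 8525 calls. In the same fit, scrambled against DMSO gave 6321 calls (31.4%; 14.9% higher, 16.5% lower) and the G9a mean against scrambled 10058 (49.9%), 5038 higher and 5020 lower (24.9%).

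The naming rule took the 12 largest increases among genes at a mean of at least 2 CPM whose groups did not overlap. CHI3L1, which encodes a chitinase-like glycoprotein secreted by macrophages and neutrophils, was at 230.5, 253 and 253 CPM in DMSO. It reached 1651, 1667 and 1677 CPM with hairpin 2 and 1763, 1858 and 1898 CPM with hairpin 3. Every G9a value was far above every DMSO value, for a log2 change of 2.83 ± 0.04 SE (edgeR adjusted p = 4.13e-26). The scrambled libraries stood at 303 to 319.9 CPM, slightly above DMSO, and the G9a mean was also above scrambled, by 2.50 in log2. CHI3L1 lies at 203148059 to 203155877 on the minus strand of chromosome 1 (hg19).

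Haptoglobin, the plasma protein that binds free haemoglobin, is encoded by HP. HP was at 0.888 to 0.951 CPM in DMSO, at 6.54, 7.14 and 7.28 CPM with hairpin 2 and at 7.08, 6.80 and 8.70 CPM with hairpin 3 (log2 change 2.96 ± 0.11 SE). The scrambled libraries held 1.59 to 2.01 CPM, between the groups and apart from both. KCNMB1, a regulatory subunit of a calcium-activated potassium channel, was at 6.54, 7.71 and 7.48 CPM in DMSO and at 44.7 to 53.4 CPM in the 6 G9a libraries (2.73 ± 0.07). GVINP1, a pseudogene of a very large interferon-inducible GTPase, went from 6.74 to 7.44 CPM in DMSO to 34.8 to 39.8 CPM with G9a hairpins (2.41 ± 0.06). For KCNMB1 and GVINP1 the scrambled libraries lay below DMSO, at 5.85 to 6.09 CPM and 5.91 to 6.40 CPM. The KCNMB1 call was lost without DMSO replicate 2 or 3 or scrambled replicate 1 (-0.26 to -0.23). That of GVINP1 was lost with RLE scaling, DESeq2, no low-count filter or the compared libraries alone (-0.21 to -0.18). It was also lost without DMSO replicate 1 or 2 or scrambled replicate 1 or 3 (-0.21 to -0.14). Reads of a pseudogene such as GVINP1 may be shared with its relatives, so its level is uncertain.

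The other 8 of these 12 genes rose by 1.75 to 2.36 in log2. They were NPAS4 (2.36), a transcription factor known from neuronal activity, SIGLEC8 (2.01), a sialic acid receptor of eosinophils and mast cells, and DHRS9 (1.97), a retinol dehydrogenase. FGD2 (1.87), an activator of the small GTPase Cdc42, and SLPI (1.84), a secreted inhibitor of neutrophil proteases, followed. PRTG (1.77) encodes an adhesion receptor of the developing nervous system, EBF1 (1.77) a transcription factor of B cell specification and TGFB1I1 (1.75) a focal adhesion adaptor. SLPI was at 21.5 to 23.8 CPM in DMSO and 75.6 to 92.7 CPM with G9a hairpins, while scrambled libraries held 40.9 to 41.8 CPM. FGD2 moved the other way in scrambled cells, at 0.564 to 0.634 CPM against 0.951 to 1.14 CPM in DMSO and 3.36 to 4.92 CPM with G9a hairpins. TGFB1I1 was at 11.1 to 15.4 CPM in DMSO, 11.5 to 14.2 CPM in scrambled and 41.5 to 46.3 CPM in G9a libraries. All 12 genes were also above scrambled, by 0.99 to 2.99 in log2, and for CHI3L1, HP, NPAS4, SIGLEC8, DHRS9, SLPI and PRTG scrambled cells were themselves above DMSO, a call that for NPAS4 was lost in the compared libraries alone and without DMSO replicate 1 or 3 or scrambled replicate 1 or 3 (0.29 to 0.40). KCNMB1 had the largest of these differences from scrambled.

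Among the 12 genes with the largest decreases by the same rule, some were at or near the DMSO level in scrambled cells. DPEP1, a membrane-bound dipeptidase, was at 121, 143 and 153 CPM in DMSO. It was at 21.5, 18.3 and 18.3 CPM with hairpin 2 and 21.6, 22.7 and 21.0 CPM with hairpin 3 (log2 change -2.76 ± 0.05 SE, edgeR adjusted p = 1.36e-23). Scrambled libraries held 116 to 125 CPM, so the G9a libraries were far below both controls (-2.55 against scrambled). Scrambled DPEP1 was itself slightly lower than DMSO (-0.21, edgeR adjusted p = 0.00844), a call lost in the compared libraries alone and without DMSO replicate 3 (-0.14). CHAT, choline acetyltransferase, the enzyme that makes acetylcholine, was at 45.4, 49.9 and 48.5 CPM in DMSO, at 8.20 to 9.81 CPM with hairpin 2 and at 9.39 to 10.7 CPM with hairpin 3 (-2.35 ± 0.05). The scrambled libraries stood at 45.6 to 48.1 CPM, and CHAT did not pass the test between scrambled and DMSO (-0.03, edgeR adjusted p = 0.748).

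CD79A, a signalling subunit of the B cell receptor, fell from 21.5 to 25.9 CPM in DMSO to 3.37 to 4.22 CPM (-2.60 ± 0.07), with 16.7 to 19.8 CPM in scrambled libraries. FAIM3, a receptor for immunoglobulin M, fell from 6.79 to 8.28 CPM to 1.36 to 1.73 CPM (-2.29 ± 0.09), with 4.77 to 5.37 CPM in scrambled. In these 2 genes scrambled cells lay a little below DMSO, by -0.36 and -0.55 in log2, and G9a cells lay below scrambled by -2.24 and -1.74. Lymphoid markers as a list had 4 of 5 tested members lower, beside 24.1% of all genes, and 0 higher, among them NKG7 (-0.35), a granule protein of killer cells. IL7R was also lower but was at 0.428 CPM or less in all 9 libraries, and its call was lost without DMSO replicate 1. The summed level of the 15 lymphoid markers was 218 to 251 CPM in DMSO and 167 to 186 CPM in G9a libraries, with CD2, CD3E and CD3G at 0 in all 9, and its part in the result was not tested. In bulk RNA fewer cells of a type and less RNA per cell cannot be told apart.

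**Figure D2:**
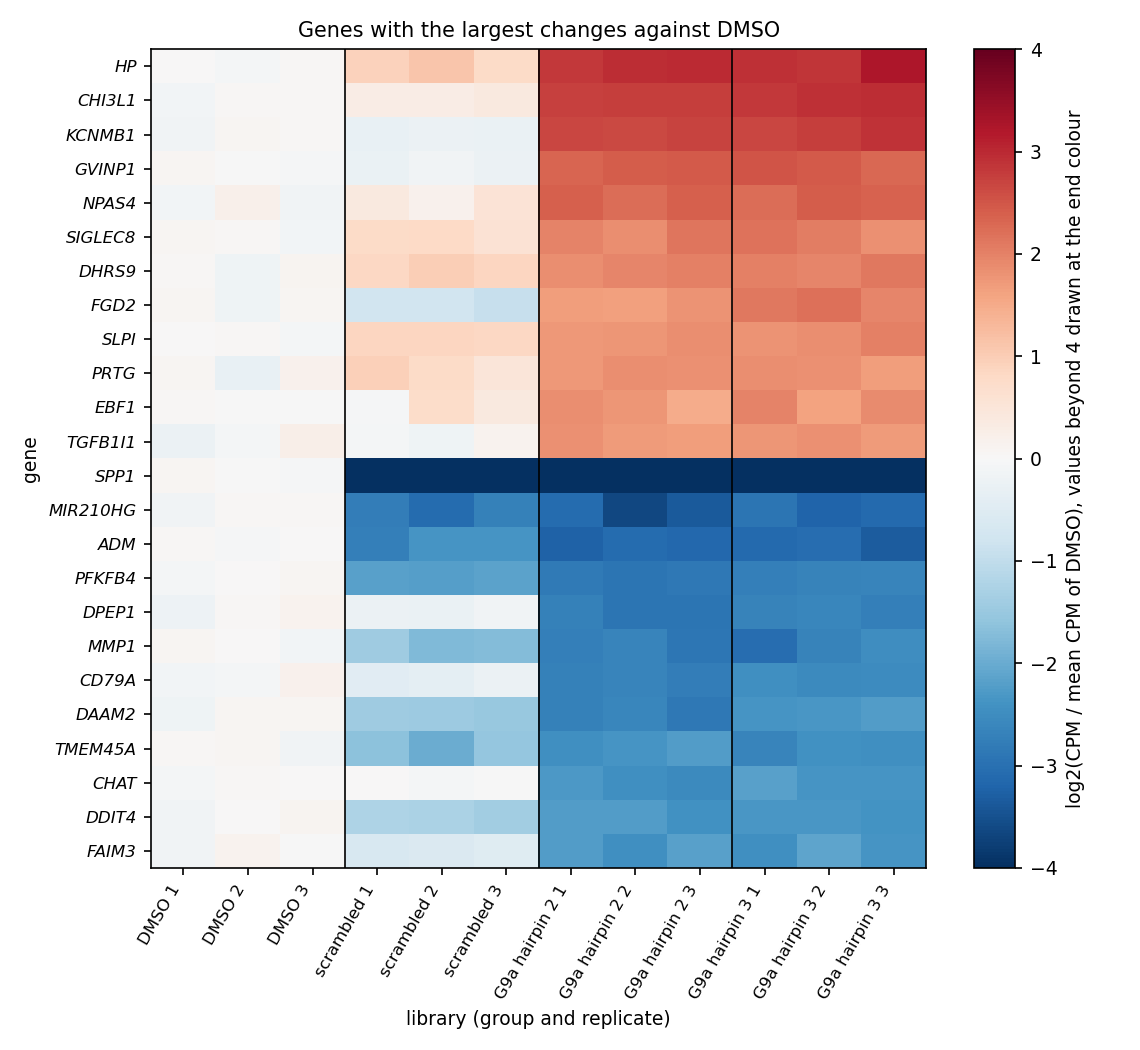
Genes picked for the size of their fitted change between G9a hairpins and DMSO, 12 higher and 12 lower, 1 per row, in the 12 libraries with DMSO, scrambled or G9a hairpins, 1 per column. Colour is the log2 ratio of the CPM to the DMSO mean, red higher and blue lower. CHI3L1, KCNMB1, DPEP1 and CHAT change in the G9a columns, and SPP1, MIR210HG, ADM and PFKFB4 are blue in the scrambled columns too.

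Another set of large decreases was also present with the scrambled hairpin. SPP1, which encodes osteopontin, a secreted phosphoprotein of macrophages, was at 17.7, 16.4 and 16.2 CPM in DMSO. It was at 0.721, 0.893 and 0.651 CPM with hairpin 2, at 0.977, 0.753 and 0.766 CPM with hairpin 3 and at 0.664, 0.552 and 1.01 CPM with the scrambled hairpin. This was the largest decrease among the genes the naming rule selected (-4.39 ± 0.12 SE against DMSO, edgeR adjusted p = 1.57e-20). Against scrambled the difference of the G9a mean was 0.12 ± 0.24 in log2 (edgeR adjusted p = 0.708), with overlapping groups. MIR210HG, the host transcript of a hypoxia-induced microRNA, fell by 3.21 on the log2 scale against DMSO and differed from scrambled by -0.34 (edgeR adjusted p = 0.0757).

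Besides SPP1 and MIR210HG, further genes were named by a rule that asks for a call in the same direction in scrambled against DMSO and for none against scrambled. IRX3, a homeobox transcription factor, was at 22.7 to 24.8 CPM in DMSO, 38.9 to 46.6 CPM with G9a hairpins and 44.1 to 45.9 CPM with scrambled. ADAMTS9, a secreted metalloprotease, was at 26.5 to 27.5 CPM, 45.5 to 48.4 CPM and 44.7 to 46.4 CPM in the same order. C1orf53, TRBV9 and BEND6 rose by 0.76 to 0.82 against DMSO and by 0.62 to 1.02 in scrambled cells. On the lower side were the serine protease gene HTRA3 (-1.81 against DMSO, -2.05 in scrambled), the aldolase gene ALDOC (-1.34, -1.43), ZC3H6 (-1.30, -1.14) and BNIP3P1 (-1.40, -1.20), a pseudogene that may share reads with BNIP3. For these genes the G9a libraries and the scrambled libraries overlapped. C1orf53 was called below scrambled with RLE scaling, without the low-count filter, with the replicate block and without hairpin 2 replicate 2 (-0.20 to -0.28). TRBV9 was called above scrambled without scrambled replicate 1 (0.29). MIR210HG was called below scrambled without scrambled replicate 2 (-0.47) or hairpin 2 replicate 1 (-0.42).

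The hypoxia and glycolysis list fell against DMSO almost throughout. Of 28 tested members 25 were lower and 0 higher, with a median log2 change of -0.66, against 24.1% of all genes lower and a median of 0.0022. In scrambled against DMSO 24 were lower (85.7%, beside 16.5% of all genes) and 0 higher (beside 14.9%). The median there was -0.42, and the 2 comparisons share the DMSO libraries. In G9a against scrambled 14 were lower and 4 higher, with a median of -0.10. The members that fell most were ADM, which encodes the vasodilator adrenomedullin (-3.16 ± 0.08 SE), and PFKFB4, which sets the level of an activator of glycolysis (-2.78 ± 0.04). SLC2A3, a neuronal-type glucose transporter also used by leukocytes, followed (-2.02 ± 0.03), and then P4HA1, a subunit of the enzyme that hydroxylates collagen prolines (-1.74 ± 0.05).

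SLC2A3 was at 158, 157 and 154 CPM in DMSO, at 38.7, 37.1 and 37.8 CPM with hairpin 2, at 39.8, 38.5 and 39.0 CPM with hairpin 3 and at 67.4 to 69.0 CPM with scrambled. The 3 levels were apart, with G9a cells lowest and scrambled cells in between. PFKFB4 showed the same order, with 78.6 to 86.8 CPM in DMSO, 18.0 to 18.6 CPM in scrambled and a mean of 12.1 ± 0.887 CPM (SD, n = 6) with G9a hairpins. Of the glycolytic enzymes and regulators, PGAM1 (-0.88), LDHA (-0.77) and PGK1 (-0.30) were lower, while GAPDH (-0.02), PFKL (-0.04) and PFKP (-0.11) were not called. These were singled out after their values were seen, as was VEGFA, the angiogenic growth factor, at 269 to 278 CPM in DMSO, 188 to 198 CPM with G9a hairpins (-0.51) and 263 to 273 CPM with scrambled. NDRG1 and BNIP3L were lower than DMSO in both kinds of hairpin cells but less so with G9a hairpins, which lay above scrambled by 0.52 and 0.32.

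**Figure D3:**
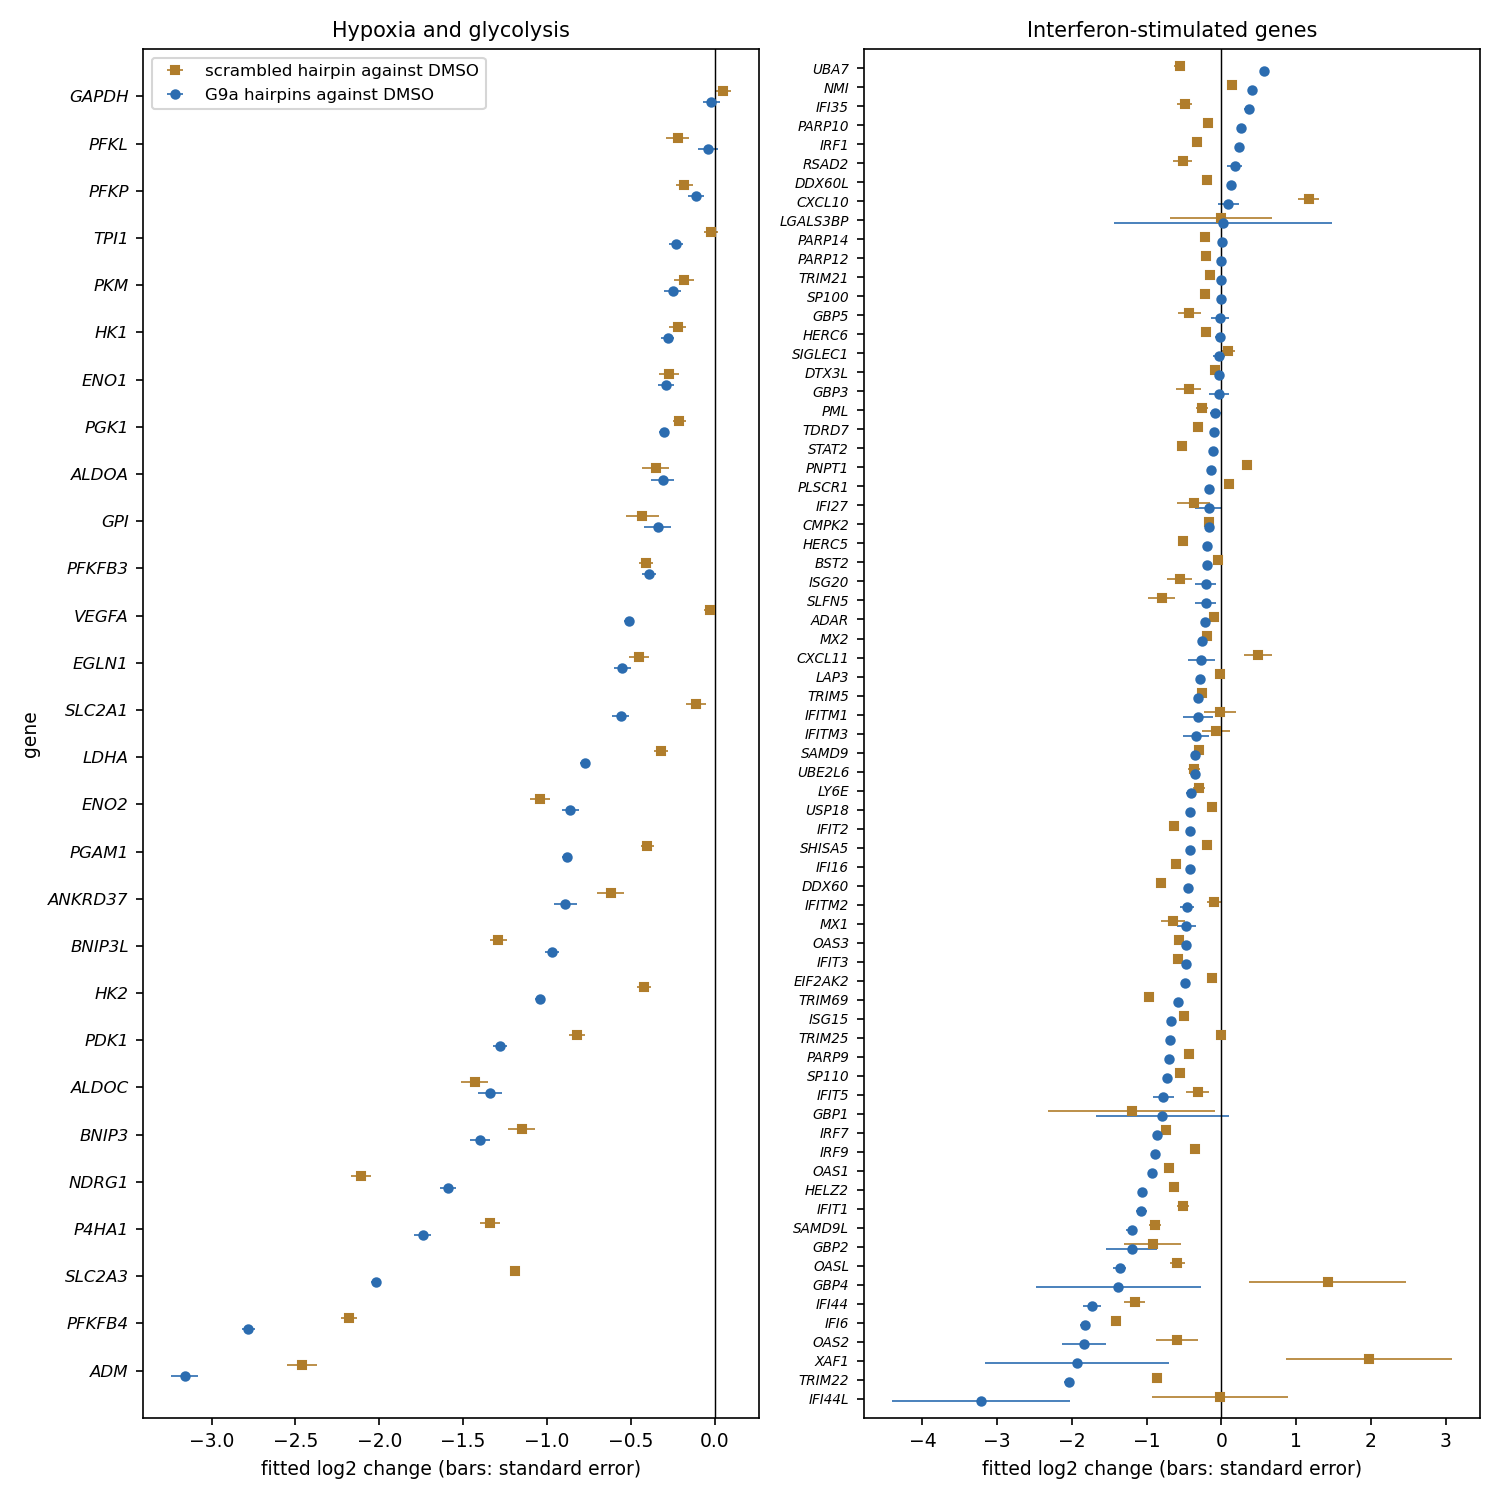
Fitted log2 changes against DMSO of the 28 tested hypoxia and glycolysis genes (left) and tested interferon-stimulated genes reported here (right), 1 gene per row, for G9a hairpins (circles) and the scrambled hairpin (squares). Bars are standard errors of the fit, and both comparisons use the same 3 DMSO libraries. Nearly all hypoxia genes lie left of 0 for both, from ADM at -3.16 to GAPDH at -0.02 with G9a hairpins, and UBA7 is at 0.57 with G9a hairpins and -0.56 with scrambled.

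Promoters of P4HA1 and LDHA are shown because genes of this list fell together, and because the core letters bound by hypoxia-inducible factors, ACGTG, occur in them. The 250 bases before the RefSeq start are given 5′ to 3′ on the gene's strand in build GRCh38.p14, for P4HA1 chr10:73096867-73097116 on the minus strand and for LDHA chr11:18394313-18394562 on the plus strand. Capitals mark ACGTG and its reverse complement CACGT, which overlap where CACGTG is spelled.
P4HA1: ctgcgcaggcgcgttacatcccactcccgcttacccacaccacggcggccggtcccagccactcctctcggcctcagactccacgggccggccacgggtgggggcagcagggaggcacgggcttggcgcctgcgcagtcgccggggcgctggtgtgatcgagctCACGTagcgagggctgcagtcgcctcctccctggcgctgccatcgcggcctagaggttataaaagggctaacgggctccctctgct
LDHA: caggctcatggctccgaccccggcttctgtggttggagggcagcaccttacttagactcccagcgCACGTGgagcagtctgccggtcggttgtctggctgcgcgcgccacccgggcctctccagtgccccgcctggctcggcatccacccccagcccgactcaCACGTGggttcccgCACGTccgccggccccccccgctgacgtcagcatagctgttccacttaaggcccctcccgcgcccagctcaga
In windows of 300 bases, from 250 before to 50 after the start, ACGTG was found on either strand in 12 of 24 list members with a promoter entry and in 11 of 21 that were lower (52.4%). It was in 26.4% of the 10313 tested genes with an entry, in 27.4% of genes called lower, in 27.0% of those called higher and in 21.6% of all 27305 promoters. Of lysosome genes, a list that mostly did not fall, 9 of 20 held it (45.0%), and the windows of ADM and PFKFB4, the members that fell most, held none. This motif was chosen after the values were seen, and a match describes letters only.

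Interferon-stimulated genes were mostly lower than in DMSO with G9a hairpins. Of 72 tested members 42 were lower and 6 higher, with a median log2 change of -0.33, against 24.1% lower and 22.5% higher over all genes. Scrambled against DMSO gave 49 lower and 3 higher (68.1% and 4.17%, beside 16.5% and 14.9% of all genes). The median there was -0.32, from the same DMSO libraries. Against scrambled, 29 were lower and 25 higher, with a median of -0.06. IFI6, a mitochondrial interferon-induced protein, was at 106, 93.5 and 92.3 CPM in DMSO, at 28.1, 28.2 and 23.5 CPM with hairpin 2 and at 30.0, 27.6 and 27.5 CPM with hairpin 3 (-1.83 ± 0.06 SE, edgeR adjusted p = 7.40e-19). Scrambled libraries stood at 35.0 to 38.9 CPM, far below DMSO and above every G9a library.

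TRIM22, an antiviral ubiquitin ligase, fell from 17.2 ± 1.51 CPM (SD, n = 3) in DMSO to 4.18 ± 0.423 CPM (SD, n = 6), a log2 change of -2.04 ± 0.07, with 8.66 to 10.0 CPM in scrambled. TRIM25, the ligase that activates the sensor RIG-I, was at 113 to 119 CPM in DMSO, 113 to 119 CPM in scrambled and 69.4 to 75.1 CPM in G9a libraries (-0.69 ± 0.03). TRIM25 was lower than either control by the same log2 difference. HELZ2, a helicase and nuclear receptor coactivator, fell by 1.06 on the log2 scale. Members of the opposite direction, singled out after their values were seen, were UBA7, the enzyme that activates ISG15 for conjugation (0.57 against DMSO, 1.13 against scrambled), NMI (0.41, 0.27) and IRF1, a transcription factor that responds to interferon gamma (0.24, 0.57). Of transcription factors in the list, also singled out after their values were seen, IRF9 (-0.89) and IRF7 (-0.86) were lower against DMSO and STAT2 was not called (-0.11).

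The IFI6 promoter is shown as the example with repeated copies of GAAA, any 2 bases and GAAA again, a form of the interferon-stimulated response element. It is chr1:27672193-27672442 on the minus strand of GRCh38.p14 (RefSeq), the 250 bases before the start, and capitals mark the 3 matches.
IFI6: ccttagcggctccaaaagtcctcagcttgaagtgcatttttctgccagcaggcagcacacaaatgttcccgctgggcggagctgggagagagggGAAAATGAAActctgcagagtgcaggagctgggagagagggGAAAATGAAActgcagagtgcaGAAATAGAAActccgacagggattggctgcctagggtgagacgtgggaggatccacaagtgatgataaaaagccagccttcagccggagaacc
These letters were found on either strand in the 300-base windows of 33 of 55 list members with an entry and of 18 of 31 members called lower (58.1%). Over all 27305 promoters 3.65% held it. Of all genes called lower 3.16% held it, of those called higher 2.73% and of tested genes 3.03%. The list is one of interferon-stimulated genes, so its share says nothing on the fall, and a match describes letters only.

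Among interferons and nucleic acid sensors, 11 of 24 tested genes were lower (45.8%, beside 24.1% of all genes) and 6 higher (beside 22.5%), with a median of -0.08, and in scrambled against DMSO 10 were lower and 2 higher. The RNA sensors IFIH1, which encodes MDA5, and DDX58, which encodes RIG-I, fell by 0.41 and 0.83 on the log2 scale, and in scrambled cells by 0.28 and 0.54. DDX58 was at 11.9 to 13.4 CPM in DMSO and 6.61 to 7.66 CPM with G9a hairpins. AIM2, a sensor of cytosolic DNA, fell by 1.11, and IKBKE, a kinase upstream of interferon transcription, rose by 0.38. IKBKE was at 50.1 to 55.8 CPM in DMSO, 50.6 to 53.8 CPM in scrambled and 63.4 to 74.4 CPM in G9a libraries. Retroviral restriction factors were lower in 9 of 22 (40.9%) and higher in 4 (18.2%), and SERINC5, which lowers the infectivity of retroviral particles, rose from 3.11 to 4.28 CPM to 8.22 to 9.10 CPM (1.26 ± 0.09) with 3.95 to 4.51 CPM in scrambled. MX2 (-0.26) and TRIM5 (-0.31), which act on incoming capsids, were lower against DMSO and were not called against scrambled (-0.06 and -0.05).

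Antigen presentation genes were measured in both classes. Of 12 tested MHC class II genes 5 were lower (41.7%, beside 24.1% of all genes) and 0 higher (median -0.43). CIITA, the master regulator of this class, fell from 24.2 to 28.6 CPM to 15.2 to 16.8 CPM (-0.71 ± 0.05) with 18.3 to 19.1 CPM in scrambled. HLA-DRA, the alpha chain of the DR molecules, was at 28.9 to 30.3 CPM in DMSO, 20.5 to 28.3 CPM with G9a hairpins and 40.8 to 43.3 CPM with scrambled, so the controls lay on different levels above the G9a libraries. HLA-DRB1 (-0.55) and HLA-DRB5 (-0.83) were lower too, though reads of these near-identical paralogs may be shared. In MHC class I presentation 9 of 22 genes were lower (40.9%) and 6 higher (27.3%, beside 22.5% of all genes), with a median of -0.05. HLA-E, a ligand of natural killer receptors, fell by 0.46. Against scrambled it lay lower in all 6 libraries by a small margin (-0.07), which was not called here but was with RLE scaling, the 1 CPM filter, the replicate block, DESeq2 or without hairpin 2 replicate 3. The immunoproteasome subunit PSMB8 fell by 0.30. The chaperone PDIA3 (0.31) and the peptide editor TAPBPL (0.55) rose against DMSO, and both were above scrambled as well.

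Inflammatory genes fell in 17 of 29 cases (58.6%, beside 24.1% of all genes) and rose in 3 (10.3%, beside 22.5%), with a median of -0.22. IL1B, which encodes the cytokine interleukin-1 beta, was at 32.0, 30.8 and 30.2 CPM in DMSO and at 10.9 to 13.3 CPM in the 6 G9a libraries (-1.35 ± 0.05), with 15.3 to 16.2 CPM in scrambled. TNF fell from a mean of 38.8 CPM to 17.2 CPM (-1.18 ± 0.07), and scrambled lay in between at 28.5 to 32.9 CPM. The monocyte attractant CCL2 went in opposite directions, at 49.3 to 51.4 CPM in DMSO, 29.6 to 34.3 CPM with G9a hairpins (-0.70) and 93.3 to 99.1 CPM with scrambled. CCL3, another chemokine, was at 9.36 to 11.2 CPM in DMSO, 9.35 to 9.47 CPM in scrambled and 4.56 to 5.68 CPM in G9a libraries, which lay below both controls. Immediate early genes fell in 18 of 27 cases (66.7%, beside 24.1% of all genes) and rose in 4 (14.8%, beside 22.5%), with a median of -0.27. EGR1 was at -2.20 ± 0.07, the phosphatase gene DUSP4 at -0.60, the AP-1 member JUNB at -0.57 and the signalling inhibitor SPRY2 at -0.52. JUNB and SPRY2 were not called between scrambled and DMSO (-0.07 and 0.09).

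Some genes of neutrophil-type granules rose. In the list of granule and myeloid progenitor genes 12 of 22 were higher (54.5%, beside 22.5% of all genes), 3 lower (13.6%, beside 24.1%) and 7 not called (median 0.18). Scrambled against DMSO gave 4 higher and 3 lower (18.2% and 13.6%, beside 14.9% and 16.5% of all genes). ELANE, neutrophil elastase, was at 427, 479 and 496 CPM in DMSO, at 896, 803 and 723 CPM with hairpin 2 and at 856, 853 and 805 CPM with hairpin 3 (0.82 ± 0.06), and scrambled libraries held 437 to 482 CPM. The G9a libraries lay above both controls, which overlapped. The protease gene CTSG (0.74) and the eosinophil ribonuclease gene RNASE3 (0.75) rose, and CST7, an inhibitor of lysosomal proteases, fell (-0.58). MPO, myeloperoxidase, was near 1 CPM or less in both groups, at 0.666 to 1.06 CPM in DMSO and 0.795 to 0.947 CPM with G9a hairpins. The summed level of the 23 granule and progenitor genes was 5075 to 5241 CPM in DMSO and 6059 to 6590.5 CPM in G9a libraries.

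Monocyte and macrophage markers went both ways, with 10 of 26 higher (38.5%, beside 22.5% of all genes) and 9 lower (34.6%, beside 24.1%), a median of -0.07, and their summed level was 2072 to 2370.2 CPM in DMSO and 2357 to 2505 CPM with G9a hairpins. LYZ, lysozyme, was at 332, 309 and 293 CPM in DMSO, at 868 to 935 CPM with hairpin 2 and at 897 to 957 CPM with hairpin 3 (1.55 ± 0.04), with 453 to 488 CPM in scrambled. The rise of LYZ against DMSO was larger than that of the summed level, so the other markers together were lower in G9a libraries. The scavenger receptor MARCO rose by 0.68 and the chemokine receptor CCR2 by 1.33. FCGR2B, the inhibitory receptor for immunoglobulin G, fell from a mean of 15.7 CPM to 3.88 CPM (-2.02 ± 0.06), with 6.85 to 8.79 CPM in scrambled. In scrambled against DMSO 15 markers were lower and 3 higher, and in G9a against scrambled 14 were higher and 2 lower. Of HOXA genes and leukaemia regulators 5 of 15 were higher (33.3%, beside 22.5% of all genes) and 4 lower (26.7%, beside 24.1%), with small changes such as MEIS1 at -0.29 and KMT2A at 0.27. Of 5 tested erythroid and megakaryocyte markers 3 were lower, EPOR at -0.65, ITGA2B at -1.07 and KLF1 at -0.28, and the ITGA2B and KLF1 calls, whose groups overlapped, were lost without DMSO replicate 3.

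Growth and survival genes did not move as a block. Of 44 cell cycle genes 16 were lower (36.4%, beside 24.1% of all genes) and 13 higher (29.5%, beside 22.5%). BUB1B, a spindle checkpoint kinase, fell from 141 to 161 CPM to 82.4 to 86.5 CPM (-0.82 ± 0.03) with 141 to 154 CPM in scrambled. The helicase subunit MCM4 (-0.31) and cyclin CCND2 (-0.51) were lower and the ribonucleotide reductase subunit RRM2 (0.35) higher. CDKN1A, the p53 target that inhibits cyclin-dependent kinases, was at 15.1 to 16.6 CPM in DMSO, 23.8 to 27.6 CPM with G9a hairpins (0.69 ± 0.04) and 11.5 to 12.2 CPM with scrambled. The inhibitor CDKN2C rose as well (0.47), while BTG1 (-0.57) and CDKN2D (-0.49) fell. The p53 list as a whole had 9 of 22 higher (40.9%, beside 22.5% of all genes) and 7 lower (31.8%, beside 24.1%).

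Among 27 apoptosis regulators 8 were lower (29.6%) and 7 higher (25.9%), near the 24.1% and 22.5% over all genes. The survival gene BCL2A1 fell from 71.7 to 78.0 CPM to 24.4 to 33.1 CPM (-1.48 ± 0.07), with 41.4 to 48.0 CPM in scrambled. The death-promoting genes BCL2L11, which encodes BIM, and BMF rose, BCL2L11 from 57.6 to 61.5 CPM to 103 to 109 CPM (0.82 ± 0.04) and BMF from 10.2 to 12.1 CPM to 19.8 to 21.3 CPM (0.86 ± 0.05). BMF was at 10.4 to 11.1 CPM in scrambled, within the DMSO range.

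The amino acid and endoplasmic reticulum stress list fell in 19 of 27 members (70.4%, beside 24.1% of all genes) and rose in 5 (18.5%, beside 22.5%), with a median of -0.29. In scrambled against DMSO members were called in both directions, 10 higher and 10 lower (37.0% each, beside 14.9% and 16.5% of all genes). DDIT4, a stress-induced inhibitor of mTOR signalling, was at 50.5, 57.0 and 59.8 CPM in DMSO and at 10.5 to 11.8 CPM in the 6 G9a libraries (-2.32 ± 0.05), with 21.3 to 23.8 CPM in scrambled. TRIB3, a pseudokinase induced by this response, fell from 139.6 to 152 CPM to 79.7 to 85.8 CPM (-0.82 ± 0.04), and scrambled libraries held 149 to 162 CPM. SLC7A11, the cystine transporter (-1.34), and ASNS, asparagine synthetase (-0.61), were lower than DMSO and lower than scrambled (-0.91 and -0.37). In the oxidative stress and heat shock list 10 of 23 were higher (43.5%, beside 22.5% of all genes) and 6 lower (26.1%, beside 24.1%). HMOX1, heme oxygenase, was at 94.9, 106 and 115 CPM in DMSO, at 25.9 to 30.7 CPM with G9a hairpins (-1.95 ± 0.05) and at 8.65 to 9.05 CPM with scrambled. Against scrambled HMOX1 was therefore higher, by 1.63. Thioredoxin reductase TXNRD1 (-0.70) and sulfiredoxin SRXN1 (-0.83) also fell. Of the 10 that rose, MT1E (0.70), a metallothionein, FTL (0.54), the ferritin light chain, and NQO1 (0.32), a quinone reductase, were singled out after their values were seen.

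In several metabolic lists the counts differed with the control. Of 34 genes of ribosome biogenesis and MYC targets 12 were higher (35.3%, beside 22.5% of all genes) and 8 lower (23.5%, beside 24.1%) against DMSO (median 0.03). Scrambled against DMSO gave 30 higher and 0 lower (median 0.33), and G9a against scrambled gave 29 lower and 1 higher (median -0.27). Some members were below both controls. The nucleolar helicase gene DDX21 was at 451 to 524 CPM in DMSO, 624 to 681 CPM in scrambled and 299 to 328 CPM in G9a libraries (-0.62 ± 0.04 against DMSO), and the ribosome assembly factor EBNA1BP2 at 172 to 183 CPM, 220.3 to 233 CPM and 102 to 111 CPM. The polyamine enzyme ODC1 (0.39) and the ribosomal RNA transcription factor UBTF (0.30) rose against DMSO.

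Sterol and fatty acid synthesis genes were higher in 10 of 25 and lower in 4 (median 0.04), against 20 higher and 0 lower in scrambled cells. The desaturase SCD (-0.46) and the sterol carrier STARD4 (-0.75) were below both controls. In lipid efflux and storage 4 of 15 were higher (26.7%, near the 22.5% of all genes) and 2 lower (13.3%, beside 24.1%). PLIN2, a coat protein of lipid droplets, was at 187 to 195 CPM in DMSO, 214 to 264 CPM with G9a hairpins (0.28) and 71.1 to 72.1 CPM with scrambled. Of 32 lysosome genes 12 were higher (37.5%, beside 22.5% of all genes) and 5 lower (15.6%, beside 24.1%), with a median of 0.06. Scrambled against DMSO gave 21 lower and 0 higher, and G9a against scrambled 24 higher and 1 lower (median 0.30). GPNMB, a glycoprotein of lysosomal stress and macrophages, fell from 263 to 273 CPM to 106 to 115 CPM (-1.25 ± 0.03) with 224 to 229 CPM in scrambled, whereas PSAP, which encodes activators of lysosomal lipid breakdown, rose against DMSO (0.30) and against scrambled (0.46).

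**Figure D4:**
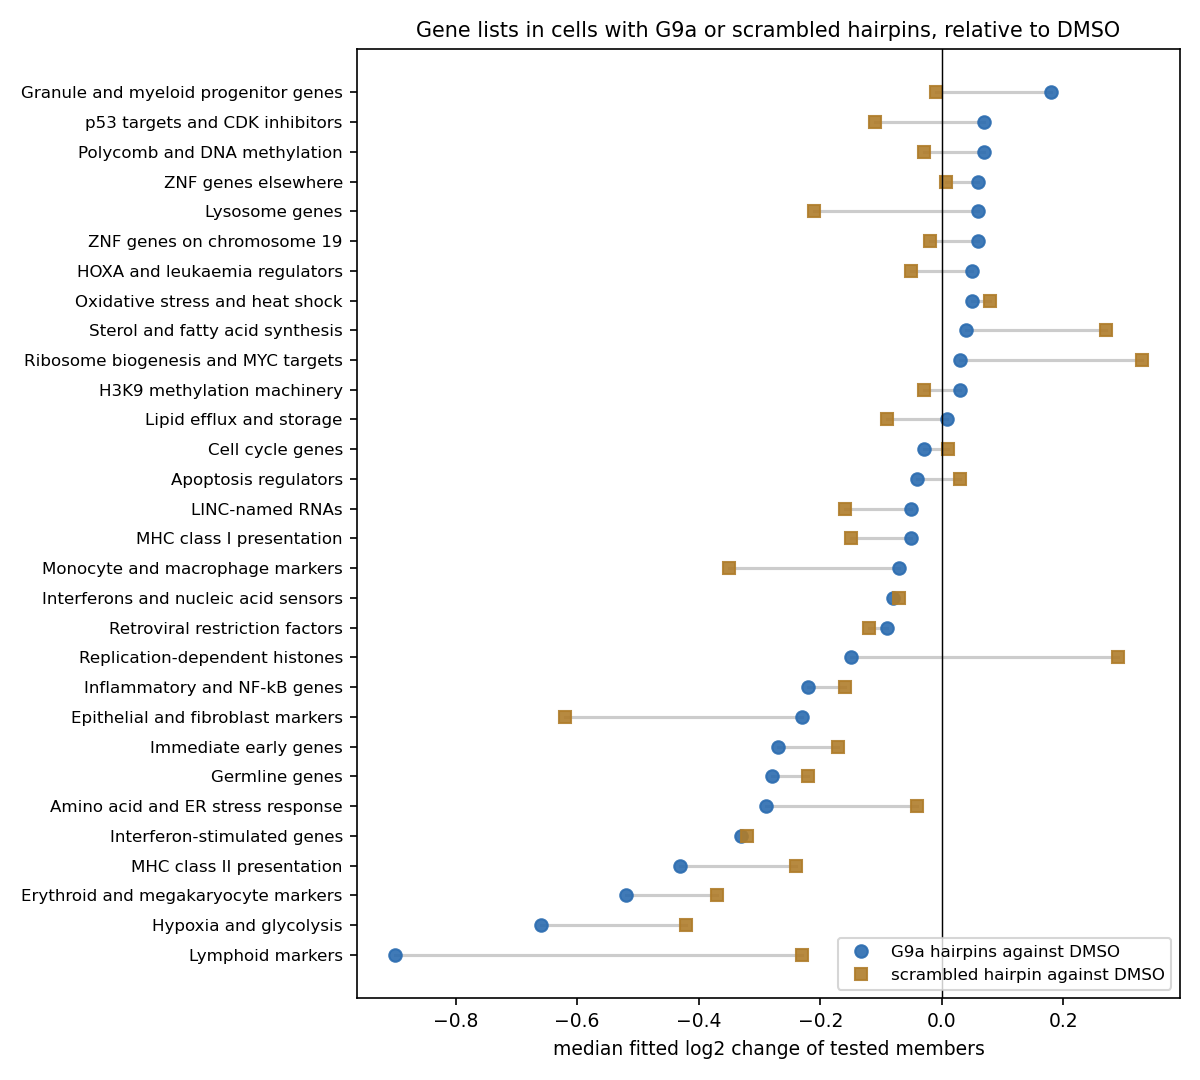
Median fitted log2 change of the tested members of each gene list, 1 list per row, for G9a hairpins against DMSO (circles) and the scrambled hairpin against DMSO (squares). A grey line joins the 2 values of a list, and both use the same 3 DMSO libraries. Hypoxia and glycolysis genes are at -0.66 and -0.42, interferon-stimulated genes at -0.33 and -0.32, and ribosome biogenesis genes at 0.03 and 0.33.

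In the H3K9 methylation machinery 9 of 32 genes were higher (28.1%) and 7 lower (21.9%), near the 22.5% and 24.1% over all genes. CBX5, which encodes the reader protein HP1 alpha, rose from 85.3 to 94.3 CPM to 124 to 137 CPM (0.54 ± 0.04), with 99.7 to 103 CPM in scrambled. The H3K9 demethylases KDM3A (-0.54) and KDM4B (-0.59) fell, both lying lower in scrambled cells too (-1.01 and -0.59). Of 28 polycomb and DNA methylation genes 12 were higher (42.9%) and 5 lower (17.9%). DNMT3B, a DNA methyltransferase, was at 31.7 to 34.2 CPM in DMSO, 30.8 to 32.5 CPM in scrambled and 20.6 to 21.7 CPM in G9a libraries (-0.63 ± 0.04). MTF2 (-0.65), a polycomb accessory protein, fell, and its relative PHF19 (0.52) and the polycomb reader CBX7 (0.40) rose.

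Zinc finger (ZNF) genes, many of which encode repressors of transposable elements, were more often higher than lower. On chromosome 19, where they form clusters, 41 of 161 were higher and 17 lower (median 0.06), and elsewhere 69 of 208 were higher and 40 lower (median 0.06). The higher shares were 25.5% and 33.2%, beside 22.5% over all genes, and the lower shares 10.6% and 19.2%, beside 24.1%. ZNF93, a repressor of a LINE-1 family, was at 21.6 to 24.2 CPM in DMSO, 19.8 to 23.4 CPM in scrambled and 34.0 to 39.0 CPM in G9a libraries (0.71 ± 0.05). ZNF789 rose from 27.4 to 29.8 CPM to 61.6 to 71.4 CPM (edgeR adjusted p = 3.16e-15), with 27.0 to 29.6 CPM in scrambled. ZNF395 (-1.03), ZNF160 (-0.60) and ZNF672 (-0.53) fell. Of 143 LINC-named RNAs 32 were higher (22.4%) and 30 lower (21.0%), near the 22.5% and 24.1% over all genes, with LINC00342 at 0.96 and LINC00263 at -1.40.

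Germline genes, a class silenced by H3K9 methylation in somatic cells, were mostly not detected, and 22 of 28 did not pass the filter on low counts. Of the 6 tested, 3 were lower and 1 higher. TDRD9, a helicase of the piRNA pathway, fell from 4.03 to 4.51 CPM to 1.23 to 2.00 CPM (-1.49 ± 0.10), with 2.94 to 3.17 CPM in scrambled, and TUBA3D was higher (0.98) at 0.586 to 1.30 CPM, overlapping DMSO at 0.428 to 0.634 CPM. Of 43 tested replication-dependent histone genes 5 were lower (11.6%, below the 24.1% of all genes) and 0 higher, HIST1H2AC among them (-0.74). Epithelial and fibroblast markers had 1 of 6 tested genes higher (16.7%, beside 22.5% of all genes) and 2 lower (33.3%, beside 24.1%). The higher one was KRT8, at 0 to 0.127 CPM in DMSO and 0.334 to 0.496 CPM in G9a libraries, which passed the low-count filter only through groups other than DMSO. The summed level of the epithelial and fibroblast markers overlapped, at 130.2 to 146 CPM in DMSO and 138 to 147 CPM with G9a hairpins. CDH1, COL1A2 and KRT18 were among 7 markers at 0 in all 9 libraries.

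Counts on repeats rose as a whole. The DMSO libraries held 6.10, 5.77 and 5.94 counts on repeats per 100 counts on genes, hairpin 2 libraries 6.88, 7.02 and 6.97, and hairpin 3 libraries 7.14, 6.77 and 6.45. All 6 G9a libraries were above all 3 DMSO libraries, 6.87 ± 0.241 (SD, n = 6 libraries) against 5.94 ± 0.166 (SD, n = 3). A two-sided exact permutation test gave p = 0.0119, the smallest p that 84 arrangements allow. It pooled the libraries of both hairpins as if they were replicates, so this p measures only the spread between libraries. Either hairpin alone has 3 libraries against 3 in DMSO, where 20 arrangements allow no less than 0.10. Scrambled libraries held 5.63 to 5.85 and did not pass against DMSO (exact permutation p = 0.300, where 20 arrangements allow no less than 0.10). Of 929 repeat names tested 654 differed (70.4%), 608 higher (65.4%) and 46 lower (4.95%), with a median log2 change of 0.26. All 6 G9a libraries lay above all 3 DMSO libraries in 53.3% of names and below them in 3.01%. Hairpin 2 alone gave 622 calls (67.0%; 63.2% higher, 3.77% lower) and hairpin 3 alone 583 (62.8%; 58.6% higher, 4.20% lower). In scrambled against DMSO 82 differed (8.83%), 36 higher (3.88%) and 46 lower (4.95%), with a median of -0.0071, and in G9a against scrambled 677 differed (72.9%), 639 higher (68.8%) and 38 lower (4.09%). Without DMSO replicate 1, 615 repeat names differed from DMSO.

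The rise was measured relative to genes. When repeats were scaled by their own totals the median change was 0.01, with 158 names higher and 186 lower, so this second scaling shows which names rose or fell relative to other repeats. Directions by repeat family below rest on the scaling by genes, and the closing section gives those that turned with the other. The repeat table sums all copies of a name, so copies inside transcribed genes cannot be told apart from copies transcribed on their own, and reads of near-identical copies may be shared.

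LINE-1 elements, autonomous retrotransposons that copy themselves through RNA, were mostly higher. Of 18 LINE-1 names in the L1HS and L1PA groups 16 were higher and 0 lower (median 0.48, against 65.4% of all repeat names higher). With the repeat table's own scaling 12 of 18 were still higher. L1PA3 was at 46.6, 44.6 and 43.2 CPM in DMSO, at 66.8, 69.0 and 70.0 CPM with hairpin 2, at 73.1, 68.1 and 61.1 CPM with hairpin 3 and at 44.0 to 51.0 CPM with scrambled (0.60 ± 0.05 SE, edgeR adjusted p = 1.85e-10). L1PA5, L1PA6 and L1PA7 rose by 0.58 to 0.60, and L1PA15-16 by 0.91. The names that did not pass were the youngest, L1HS (-0.12 ± 0.22) and L1PA2 (0.02 ± 0.19), whose DMSO libraries spread from 49.0 to 87.0 CPM and from 54.9 to 85.3 CPM. L1PA3, L1PA5, L1PA6, L1PA7, L1HS and L1PA2 were singled out after their values were seen. Of 85 LINE-1 names in the L1PB and L1M groups 78 were higher and 0 lower (median 0.33), among them L1PBa at 0.70.

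Endogenous retroviruses and their long terminal repeats (LTRs) varied by family, and shares are read beside the 65.4% higher and 4.95% lower of all repeat names. MLT2 and ERVL names were higher in 19 of 21 with 0 lower, both HERVW and LTR17 names were higher, the HERVK group in 13 of 17 with 2 lower, and THE1, MST and MLT1 names in 53 of 77 with 5 lower. HERV15-int, an internal retroviral sequence, was at 1.14 to 1.47 CPM in DMSO and at 2.96 to 4.21 CPM in G9a libraries (1.36 ± 0.14), with 1.77 to 2.11 CPM in scrambled. HERVK14-int rose from 1.78 to 2.01 CPM to 3.54 to 4.00 CPM (1.01 ± 0.10), and scrambled libraries held 1.84 to 2.17 CPM. Of 7 LTR12 names, promoters known to be reactivated by chromatin drugs, 3 were higher (42.9%), and of 6 HERVH and LTR7 names 1 was higher (16.7%), both shares below that of all repeat names. MER61 names, some of which carry p53 binding sites, were lower in 3 of 7 and higher in 1.

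LTR13_ was the repeat that fell most. It was at 6.09, 6.18 and 6.07 CPM in DMSO, at 2.67, 2.98 and 2.24 CPM with hairpin 2, at 2.17, 2.06 and 1.98 CPM with hairpin 3 and at 6.40, 6.30 and 7.39 CPM with scrambled (-1.38 ± 0.08 against DMSO, edgeR adjusted p = 1.94e-13). The G9a libraries lay below both controls. LTR4 (-0.63), MER61A (-0.64), SST1 (-0.65), a satellite, and LTR1D (-0.51) also fell, and these were lower in scrambled cells as well, by -0.51, -0.49, -0.75 and -0.37. MER53 fell by 0.71 and was not called in scrambled (-0.10).

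Short interspersed Alu elements, which are the most numerous repeats in human transcripts, were higher in 27 of 36 and lower in 0 (median 0.25). The 75.0% higher stands beside 65.4% of all repeat names, and the median is near the 0.26 over all names. AluY was at 1409.9 to 1523 CPM in DMSO and 1619 to 1887 CPM in G9a libraries (0.30 ± 0.04), with 1426 to 1448 CPM in scrambled, and was singled out after its values were seen. DNA transposons were higher in 73 of 93 (78.5%) and lower in 1 (1.08%), with a median of 0.24, also near that of all names. Satellites were higher in 8 of 19 (42.1%, below the 65.4% of all repeat names) and lower in 2 (10.5%, beside 4.95%), with SATR2 rising from 2.51 to 2.60 CPM to 4.12 to 5.27 CPM (0.88 ± 0.11). Of 6 SVA names 3 were higher and 2 lower.

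**Figure D5:**
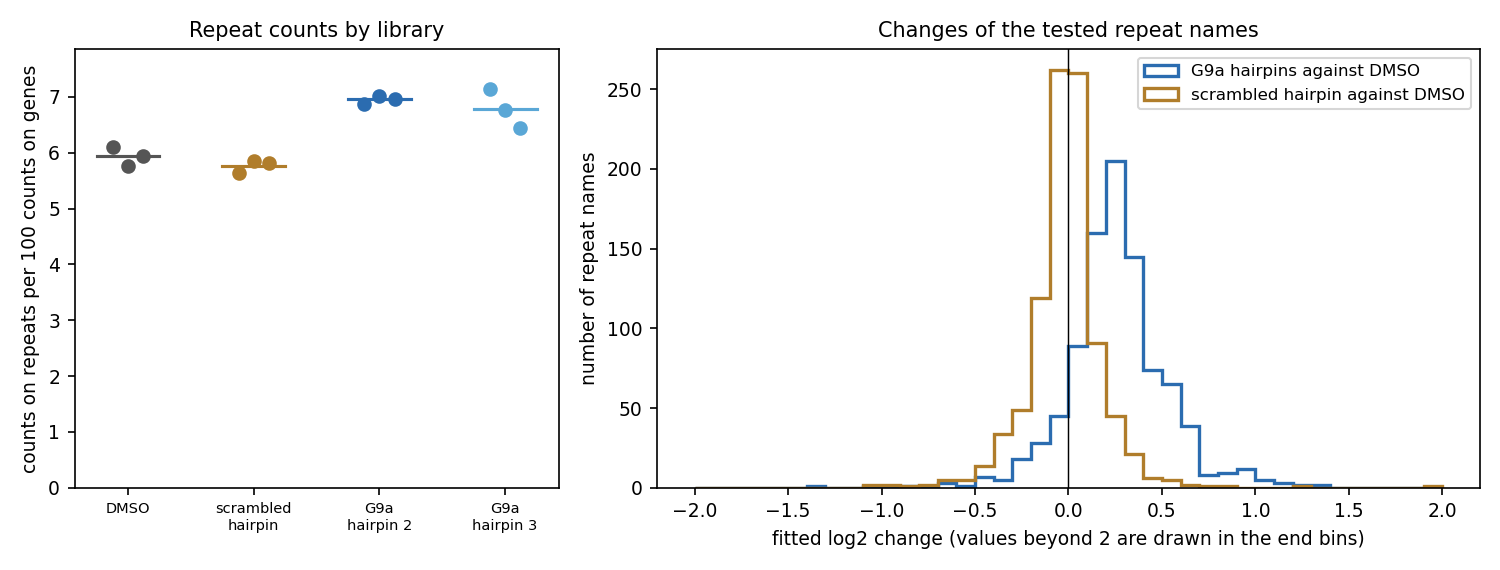
Left, counts on repeats per 100 counts on genes in each library of the DMSO, scrambled, hairpin 2 and hairpin 3 groups, with points as libraries and lines as means. Right, number of the 929 tested repeat names by fitted log2 change against DMSO for G9a hairpins and for the scrambled hairpin. The 6 G9a libraries lie at 6.45 to 7.14 against 5.77 to 6.10 in DMSO, and the distribution for G9a hairpins is centred on 0.26 while that for scrambled is centred on -0.0071.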

How the data were processed

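Gene and repeat counts for 24 RNA libraries were used as deposited. Per the submitters' processing notes, the authors aligned reads to hg19 with STAR and counted them with featureCounts. For versions and the treatment of reads with several matches no source used here gives a statement, and the kit does not mark strand, per the labels' protocols. Library groups came from the labels. Counts of 20147 of 55773 genes and 929 of 992 repeat names passed filterByExpr (minimum count 10, minimum total 15). edgeR 4.0.16 (R 4.3.3, limma 3.58.1) fitted 8 group means over all 24 libraries by quasi-likelihood, with TMM scaling. Repeats used the gene totals and factors. Calls had a Benjamini-Hochberg adjusted p under 0.05, and the SE is the log2 change over the root of F. The gene fit was tried on simulated counts for the G9a mean against DMSO only, with far fewer changed genes than were called here. The repeat fit was not simulated.

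Named were the methyltransferases, the top 12 genes by fitted change in each direction, if called for both hairpins (mean at least 2 CPM, groups apart), 8 each that also differed from scrambled, up to 6 each shared with scrambled, 4 members by p from any list holding 3 or more calls, 8 higher and 6 lower repeats, and calls between hairpins. Other names were chosen after their values were seen. Members and lists were chosen with earlier results of these data known. Alternatives were RLE scaling, DESeq2 1.42.0, other filters, fewer libraries, a replicate block and the repeat table's own scaling. Some genes these rules select are not reported here.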

Additional observations from a re-analysis of the deposited data

Results flagged for a closer look

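EGR1 and HSPA6 stood out because the difference between the hairpins itself passed the test, while both hairpins lay below DMSO. For EGR1 hairpin 3 against hairpin 2 gave a log2 difference of 0.65, and for HSPA6 it gave -0.49. The adjusted p was 0.00990 for both in edgeR's quasi-likelihood test. In scrambled cells EGR1 was at 36.5 to 48.4 CPM, above both hairpins, and HSPA6 at 4.57 to 5.13 CPM, overlapping the G9a libraries.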

How the results depend on the processing

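Against DMSO, leaving out 1 library gave 8334 to 9215 called genes and 585 to 675 called repeats, DESeq2 gave 8750 genes, and the compared libraries alone 8469. With the replicate block 9768 genes and 663 repeats were called. Deviations of same-numbered libraries from their group means correlated little, by -0.087 to 0.117. With 3 libraries per group this cannot decide whether the numbers pair them. With the repeat table's own scaling 344 repeats were called, 45.9% of them higher, against 93.0%. Of the families, LTR12 then had 0 higher and 3 lower, HERVH and LTR7 0 and 3, THE1, MST and MLT1 11 and 20, and satellites 2 and 6, all reversed. SST1 against scrambled was -0.16 rather than 0.10. Between hairpins, genes called were 11 without the low-count filter, 1 in the compared libraries alone and 0 to 2 with 1 library left out, and repeats called were 2 in the compared libraries alone and 0 to 1 with 1 library left out. The cause was not tested. Calls against DMSO were lost for ITGA2B and KLF1 without DMSO replicate 3, IL7R without DMSO replicate 1, and HIST1H3H without DMSO replicate 2 or 3 or hairpin 2 replicate 3.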
